A study of Mus musculus with 36 samples.

Results

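The CXC chemokines are small secreted or membrane-bound proteins that direct the movement of leukocytes. Here the transcripts of 7 of them, *Cxcl1*, *Cxcl2*, *Cxcl3*, *Cxcl5*, *Cxcl9*, *Cxcl10* and *Cxcl16*, were followed in mouse dendritic cells (DCs), out of 19938 genes measured. A member was taken as the transcript cluster (the set of probes summarized as 1 transcript) whose platform annotation gives exactly that symbol, and each of the 7 symbols had 1 such cluster. The DCs came from marrow of Balb/c mice aged 10 to 12 weeks, kept for 6 days in GM-CSF (granulocyte-macrophage colony-stimulating factor) at 100 ng/ml. In treated cultures 200 nM soluble human thrombomodulin (sTM; ART123, the extracellular part of thrombomodulin, TM) was present from day 4. Cells carrying TM at the surface (TM+ DCs) and the remaining cells (TM- DCs) were parted with an antibody to TM and magnetic microbeads, at a stated purity of over 93%. With sTM there were 6 TM+ and 6 TM- arrays, a pair per fraction in each of experiments 2, 3 and 4. Without sTM there were 4 TM+ and 4 TM- arrays, a pair per fraction in experiments 3 and 4. Unsorted DCs gave 8 arrays with sTM and 8 without, 4 per treatment in experiment 1 and a pair per treatment in experiments 2 and 3. All groups share the GM-CSF culture, and 200 nM sTM is the only agent that differs between cultures. The labels call arrays of one group biological replicates without saying whether they came from separate cultures or separate mice, so p-values measure only the spread between these samples, which may be technical. In bulk samples such as these, fewer cells of a type and less RNA per cell cannot be told apart.

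CXC chemokines fall into classes by their receptors and by what induces them. CXCL1, CXCL2, CXCL3 and CXCL5 carry the ELR motif ahead of the first cysteines, act on CXCR2 and attract neutrophils, and in myeloid cells their genes are induced by NF-kB downstream of Toll-like receptors, IL-1 and TNF. CXCL9 and CXCL10 lack that motif, act on CXCR3 and attract activated T cells and NK cells. *Cxcl9* is induced mainly by interferon gamma, and *Cxcl10* by type I as well as type II interferon. CXCL16 is made as a transmembrane protein with a chemokine domain on a stalk, binds CXCR6, takes up oxidized lipids as a scavenger receptor and is released by metalloproteases. DCs secrete the CXCR3 ligands when they mature, and neutrophil attractants when they meet microbial products.

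The stretch upstream of the transcription start is shown for the 4 members in which 1 of 3 searched motifs was found, since 3 of these members also moved together between the fractions. Sequences were taken from RefSeq (GRCm38.p6), which held a promoter for 5 of the 7 members, with *Cxcl5* and *Cxcl16* unmatched. Capitals mark matches to the NF-kB consensus or, in the first block of *Cxcl10*, to the interferon-stimulated response element. The first 3 lie on the plus strand of chromosome 5, at chr5:90891162-90891244, chr5:90903790-90903898 and chr5:90786016-90786100, and *Cxcl10* lies on the minus strand at chr5:92348890-92349114. Each is printed 5′ to 3′ and ends at the base before the start.
Cxcl1: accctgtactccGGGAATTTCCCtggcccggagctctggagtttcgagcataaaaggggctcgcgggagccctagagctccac
Cxcl2: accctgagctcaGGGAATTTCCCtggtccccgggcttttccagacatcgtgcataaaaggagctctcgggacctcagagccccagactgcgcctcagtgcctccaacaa
Cxcl3: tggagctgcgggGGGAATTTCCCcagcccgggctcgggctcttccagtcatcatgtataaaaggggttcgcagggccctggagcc
Cxcl10: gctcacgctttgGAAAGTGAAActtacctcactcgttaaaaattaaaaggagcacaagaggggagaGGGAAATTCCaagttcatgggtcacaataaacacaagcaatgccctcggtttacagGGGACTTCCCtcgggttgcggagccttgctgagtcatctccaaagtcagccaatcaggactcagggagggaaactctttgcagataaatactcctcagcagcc

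The same 11 letters stand in all 3 neutrophil attractants, ending 61 bases before the start in *Cxcl1*, 87 in *Cxcl2* and 63 in *Cxcl3*. They hold 2 overlapping matches to the NF-kB consensus, 1 on each strand. *Cxcl10* has 2 separate NF-kB matches and 1 match to the interferon-stimulated response element (GAAANNGAAA). No match to these or to the gamma-activated sequence (TTCNNNGAA) was found in the 250 bases before the start of *Cxcl9*. Both strands were searched, and of 32851 RefSeq promoters 3.9% hold an NF-kB match, 2.98% the interferon-stimulated element and 7.02% the gamma-activated sequence. A match is a description of letters and not of a bound site. In the order of genes on chromosome 5 (GRCm38.p6), *Cxcl5*, *Ppbp*, *Pf4*, *Cxcl3*, *Cxcl15*, *Cxcl1* and *Cxcl2* follow one another, *Cxcl9* and *Cxcl10* are separated by *Art3*, and *Cxcl16* lies on chromosome 11.

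The deposited values are RMA intensities on a linear scale, given below as log2 intensities. RMA intensities carry no count, so precision is set by how many arrays there are. Array medians lay between 6.6 and 6.81, and arrays of one group within an experiment correlated at 0.940 to 0.998 over all clusters (26 pairs). *Thbd*, which encodes TM, did not separate the fractions, with 5.76 to 6.92 (median 6.12) in TM+ DCs and 5.65 to 6.5 (median 5.95) in TM- DCs, so the transcript gives no check of the sort. Some arrays stood apart. The unsorted arrays of experiment 1 formed 2 states that cut across treatment, arrays 1 and 2 against arrays 3 and 4. In experiment 3 the unsorted arrays of untreated cultures correlated with the TM- untreated arrays at 0.9955 to 0.9977, as high as with each other (0.9976), while unsorted and TM- arrays of sTM-treated cultures correlated at 0.9733 to 0.9833. The paper reports TM+ DCs as a small share of untreated cultures and a larger share after sTM, so most unsorted cells are TM-. The part of these shares in the correlations was not tested. Whether all 36 arrays were normalized together is unknown here, which bears on any comparison of unsorted with sorted levels.

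**Figure D1:**
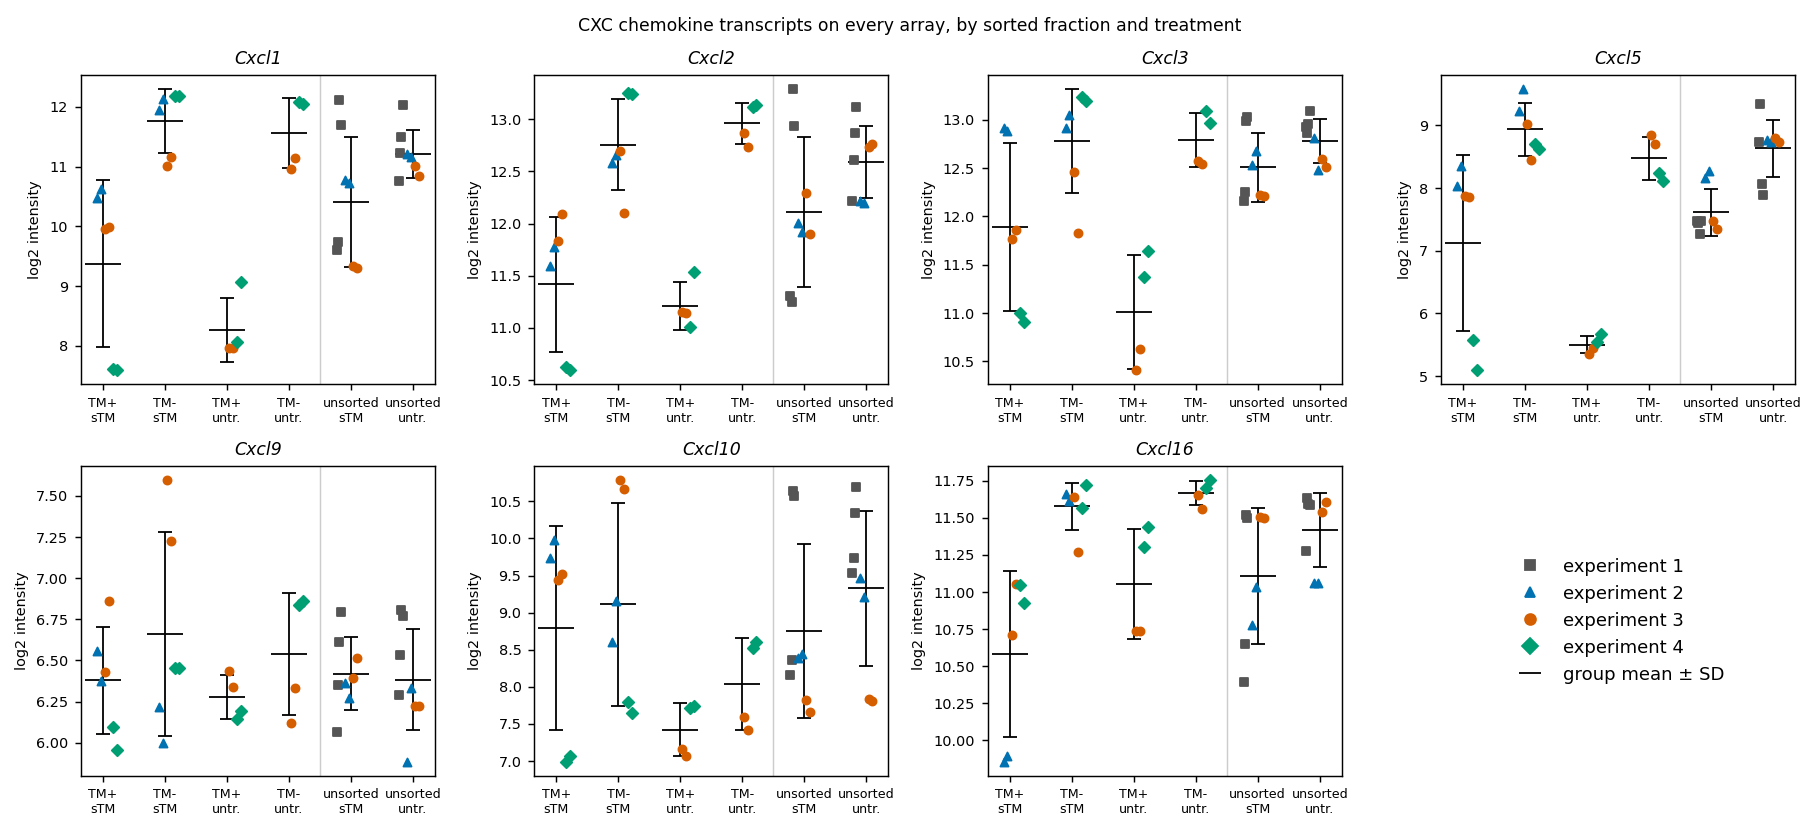
Log2 intensity of each CXC chemokine (y axis, 1 panel per gene, axes not starting at 0) on all 36 arrays by fraction and treatment (x axis; untr., untreated), with bars for the group mean ± SD and symbols for the experiment. The 10 TM+ arrays of *Cxcl1* (7.59 to 10.63) and of *Cxcl2* (10.60 to 12.09) all sit below the 10 TM- arrays, whereas the fractions overlap for *Cxcl9* and *Cxcl10*.

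Neutrophil attractants were lower in TM+ DCs than in TM- DCs. All 4 of them, *Cxcl1*, *Cxcl2*, *Cxcl3* and *Cxcl5*, passed the test, and *Cxcl16* did as well, while neither *Cxcl9* nor *Cxcl10* did. Of the 7 members 5 were thus called lower and 0 higher, where the background was 18.7% of all 19938 genes called lower. Tests are limma fits with sorting, treatment and their interaction and with experiment as a random block, and calls were made where p, adjusted over all genes by Benjamini and Hochberg, was under 0.05. Without the sTM-treated sorted arrays of experiment 3, a setting added after the data had been seen, the same 5 members were called, with -3.16 for *Cxcl1*, -1.77 for *Cxcl2*, -1.48 for *Cxcl3*, -2.63 for *Cxcl5* and -0.91 for *Cxcl16*, and the value of *Cxcl9* was -0.15 (limma adjusted p = 0.328). The median log2 fold change was -1.97 over the 4 attractants and -0.08 over all genes.

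*Cxcl1* showed the largest difference of the 7. In sTM-treated cultures its log2 intensities in TM+ DCs were 10.48 and 10.63 in experiment 2, 9.95 and 9.99 in experiment 3, and 7.61 and 7.59 in experiment 4, against 11.94 and 12.13, 11.01 and 11.16, and 12.18 and 12.19 in TM- DCs of the same experiments. In untreated cultures TM+ DCs had 7.97 and 7.97 in experiment 3 and 8.06 and 9.06 in experiment 4, and TM- DCs had 10.97 and 11.14, and 12.07 and 12.05. No TM+ array reached the lowest TM- array, and the TM+ arrays were far more spread than the TM- arrays. The log2 fold change of *Cxcl1* was -2.84 (standard error 0.33, limma adjusted p = 9e-07), or 7.16-fold lower in TM+ DCs.

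*Cxcl5*, which in mice encodes the chemokine also known as LIX, was next. In TM+ DCs of sTM-treated cultures it had 8.03 and 8.35 in experiment 2, 7.87 and 7.85 in experiment 3, and 5.58 and 5.09 in experiment 4, against 9.23 and 9.59, 9.03 and 8.45, and 8.71 and 8.63 in TM- DCs. In untreated cultures TM+ DCs had 5.35, 5.44, 5.54 and 5.67 and TM- DCs 8.84, 8.70, 8.25 and 8.12 (experiment 3 before experiment 4). The fractions did not overlap within any experiment and treatment, although the highest TM+ array of experiment 2 (8.35) lay above the lowest TM- array of experiment 4 (8.12). The log2 fold change was -2.39 (standard error 0.264, limma adjusted p = 4.56e-07), a 5.25-fold lower level in TM+ DCs.

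*Cxcl2* encodes MIP-2, a chemokine made in bulk by activated macrophages. It ranged from 10.60 to 12.09 (median 11.34) in TM+ DCs and from 12.10 to 13.25 (median 12.80) in TM- DCs, with 10 arrays of each. The fractions met at 1 place only, the second sTM-treated arrays of experiment 3 (12.09 in TM+ and 12.10 in TM- DCs). For *Cxcl2* the log2 fold change was -1.54 (standard error 0.185, limma adjusted p = 1.36e-06), or 2.91-fold lower in TM+ DCs.

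*Cxcl3*, a close relative of *Cxcl1* and *Cxcl2*, ranged from 10.41 to 12.92 (median 11.51) in TM+ DCs and from 11.83 to 13.23 (median 12.94) in TM- DCs. The overlap came from experiments 2 and 3 of the sTM-treated cultures. In experiment 2 TM+ DCs had 12.92 and 12.88 and TM- DCs 12.92 and 13.05. The log2 fold change was -1.34 (standard error 0.212, limma adjusted p = 4.17e-05), or 2.52-fold lower in TM+ DCs.

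The difference was present with and without sTM. In sTM-treated cultures the log2 fold changes between TM+ and TM- DCs were -2.39 for *Cxcl1* (limma adjusted p = 0.000301), -1.34 for *Cxcl2* (0.000313), -0.89 for *Cxcl3* (0.0202) and -1.81 for *Cxcl5* (0.000496). In untreated cultures they were -3.29 for *Cxcl1* (limma adjusted p = 7.9e-05), -1.75 for *Cxcl2* (0.000138), -1.78 for *Cxcl3* (0.000446) and -2.97 for *Cxcl5* (2.08e-05). With *Cxcl16* included, 5 of the 7 members were called lower in each kind of culture, against a background of 12.4% of genes called lower in sTM-treated and 7.93% in untreated cultures. In sTM-treated cultures *Cxcl3* was not called without experiment 4 (log2 fold change -0.21, limma adjusted p = 0.499) or with any single array of experiment 4 left out (0.0539 to 0.0667). Without experiment 4 the sTM-treated differences of *Cxcl1* (-1.30), *Cxcl2* (-0.69) and *Cxcl5* (-1.05) were smaller and were still called. Without the experiment 3 arrays of these cultures all 4 were called, at -3.03 for *Cxcl1*, -1.78 for *Cxcl2*, -1.17 for *Cxcl3* and -2.28 for *Cxcl5*.

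**Figure D2:**
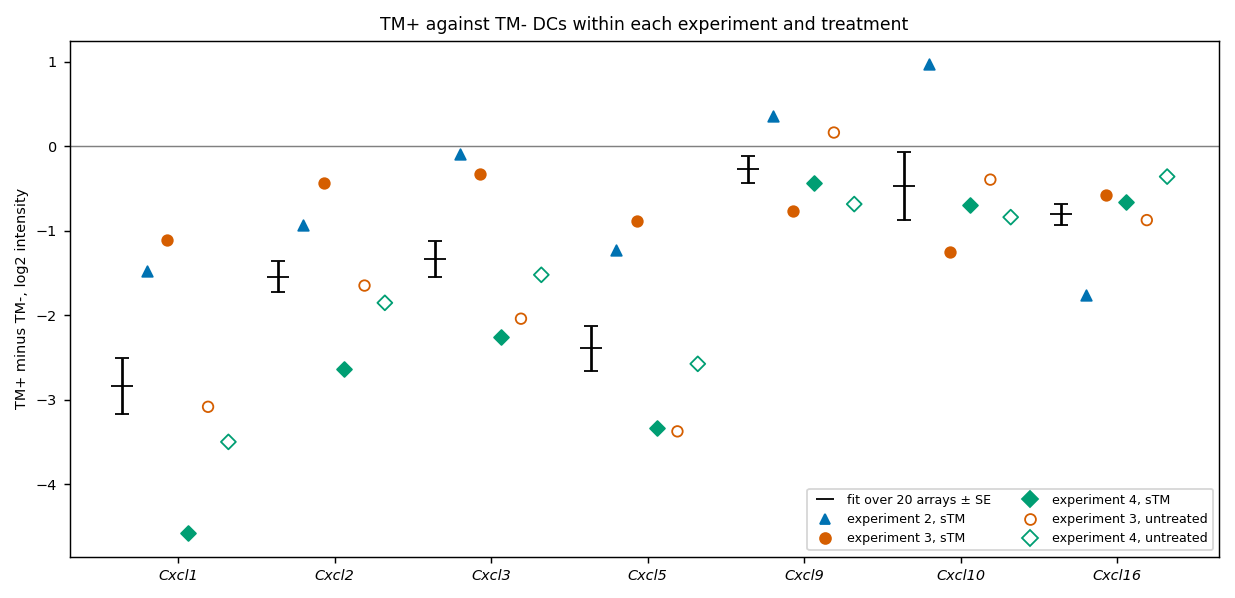
Difference in log2 intensity between TM+ and TM- DCs (y axis) for each CXC chemokine (x axis), with the limma estimate over 20 arrays ± SE in black and the difference of the 2-array means of each experiment as points, filled for sTM-treated and open for untreated cultures. The 4 neutrophil attractants and *Cxcl16* lie below 0 in all 5 settings, with *Cxcl1* between -4.58 and -1.11, while *Cxcl10* runs from -1.25 to 0.97.

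How far TM+ and TM- DCs differed depended on the experiment. In sTM-treated cultures the differences between the 2-array means of *Cxcl1* were -1.48 in experiment 2, -1.11 in experiment 3 and -4.58 in experiment 4. Those of *Cxcl5* were -1.22, -0.88 and -3.33, those of *Cxcl2* -0.94, -0.44 and -2.63, and those of *Cxcl3* -0.08, -0.33 and -2.26 in the same order. Each of the 4 genes was thus lower in TM+ DCs in every experiment and differed most in experiment 4. A test of whether the sorting difference varies among the 3 experiments, added after the data had been seen and resting on the spread between the 2 arrays of each setting, called all 7 members, against 14.4% of all genes. The F values were 203 for *Cxcl1* (limma adjusted p = 7.12e-08), 42.8 for *Cxcl2* (8.85e-05), 47.9 for *Cxcl3* (5.47e-05) and 41.1 for *Cxcl5* (0.000109). They were 45.8 for *Cxcl10* (limma adjusted p = 6.52e-05), 17.5 for *Cxcl16* (0.00337) and 11.3 for *Cxcl9* (0.0137).

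Experiments 3 and 4 hold all 4 sorted groups and allow the sorting difference to be compared over both kinds of culture. Experiment 3 minus experiment 4 was 1.94 for *Cxcl1* (standard error 0.205, limma adjusted p = 4.24e-06), 1.20 for *Cxcl2* (9.27e-05), 0.71 for *Cxcl3* (0.00348) and 0.83 for *Cxcl5* (0.00162), so that on average over both kinds of culture TM+ DCs lay closer to TM- DCs in experiment 3 for all 4 attractants. The background of genes higher in this test was 9% (of all genes). For *Cxcl9* (0.26), *Cxcl10* (-0.06) and *Cxcl16* (-0.21) the difference did not pass the test (limma adjusted p = 0.236, 0.768 and 0.296). In untreated cultures alone the differences in experiments 3 and 4 were -3.08 and -3.50 for *Cxcl1*, -1.65 and -1.85 for *Cxcl2*, -2.04 and -1.52 for *Cxcl3*, and -3.37 and -2.57 for *Cxcl5*. There the fractions lay farther apart in experiment 3 for *Cxcl3* and *Cxcl5*.

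For the interferon-induced pair no call was made between the fractions. *Cxcl10* ranged from 6.99 to 9.98 (median 7.73) in TM+ DCs and from 7.42 to 10.79 (median 8.57) in TM- DCs, and its log2 fold change of -0.47 (standard error 0.408) did not pass the test (limma adjusted p = 0.356). The fractions overlapped over most of their range. Within experiments, however, the 2 arrays of each setting lay close together and the fractions were parted. *Cxcl10* was higher in TM+ DCs in experiment 2 (9.73 and 9.98, against 8.61 and 9.16 in TM- DCs), and lower in TM+ DCs in experiment 3 (9.44 and 9.52, against 10.79 and 10.67) and experiment 4 (6.99 and 7.06, against 7.80 and 7.64) of the sTM-treated cultures. In untreated cultures TM+ DCs had 7.16, 7.07, 7.72 and 7.74, and TM- DCs 7.60, 7.42, 8.53 and 8.61 (experiment 3 before experiment 4). Without the sTM-treated sorted arrays of experiment 3 the fold change over both kinds of culture was -0.24 and that in sTM-treated cultures turned to 0.14, neither of them called.

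*Cxcl9* ranged from 5.95 to 6.86 (median 6.36) in TM+ DCs and from 6.00 to 7.60 (median 6.45) in TM- DCs. Its 2 highest arrays of all 36 were the TM- arrays of experiment 3 from sTM-treated cultures (7.60 and 7.23). Its log2 fold change was -0.27 (standard error 0.16, limma adjusted p = 0.181). It was called lower in TM+ DCs with array weights (-0.37, adjusted p = 0.00938), after centring on the 75th percentile (-0.38, 0.0414) and without experiment 3 (-0.36, 0.0253), and the sign was positive in experiment 2 (0.36) and in untreated cultures of experiment 3 (0.16).

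*Cxcl16*, the transmembrane member, had a log2 fold change of -0.81 (standard error 0.127, limma adjusted p = 3.75e-05), or 1.75-fold lower in TM+ DCs. TM+ DCs ranged from 9.86 to 11.44 (median 10.83) and TM- DCs from 11.27 to 11.76 (median 11.65), with the TM- arrays close together. The lowest TM+ arrays, 9.86 and 9.89, were those of experiment 2, in which the difference was -1.76, and in the other 4 settings it lay between -0.87 and -0.36. In sTM-treated cultures the fold change was -0.997 (limma adjusted p = 0.000131). In untreated cultures it was -0.61 (limma adjusted p = 0.0286), and this call was lost without experiment 3 (-0.36, adjusted p = 0.303), without experiment 4 (-0.87, 0.0924), without the experiment term (0.118) and with 6 of the 8 untreated arrays left out singly (0.0531 to 0.0869).

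Setting the classes side by side, the mean difference between TM+ and TM- DCs over the 4 neutrophil attractants was -0.93, -0.69 and -3.20 in experiments 2, 3 and 4 of the sTM-treated cultures, and that over *Cxcl9* and *Cxcl10* was 0.67, -1.01 and -0.56. In untreated cultures of experiments 3 and 4 the attractants averaged -2.54 and -2.36 and the interferon-induced pair -0.11 and -0.76. The attractants were therefore lower in TM+ DCs by more than the pair in 4 of 5 settings. The exception was experiment 3 with sTM, in which the pair differed more. These are means over genes and carry no test. *Cxcl9* lay near the array medians (6.6 to 6.81), at 5.88 to 7.60 over all 36 arrays. Low intensities were not separated from background, which bears on the mean of the pair.

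Treatment with sTM gave no call for any member in the sorted DCs. Over both fractions 0 of the 7 were called (*Cxcl5* and *Cxcl10* were higher at an unadjusted p under 0.05), and in the whole series 3 genes were. The log2 fold change of *Cxcl10* between sTM-treated and untreated cultures was 1.07 (standard error 0.436, limma adjusted p = 0.508) and that of *Cxcl5* 0.77 (standard error 0.282, adjusted p = 0.396). Within TM+ DCs *Cxcl5* had 1.35 (standard error 0.386, limma adjusted p = 0.118), *Cxcl10* 1.21 (0.509), *Cxcl1* 0.85 (0.621) and *Cxcl3* 0.66 (0.477). Within TM- DCs the largest value was the 0.92 of *Cxcl10* (limma adjusted p = 0.998). No interaction of sorting with sTM was called either (2 members, *Cxcl3* and *Cxcl5*, at an unadjusted p under 0.05), and the largest was the 1.16 of *Cxcl5* (standard error 0.527, limma adjusted p = 0.792). Experiment 2, with no sorted DCs from untreated cultures, also entered these fits.

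The 2 experiments with both treatments ran opposite ways in TM+ DCs. In TM+ DCs of experiment 3 all 7 members had higher means with sTM, as 36.5% of all genes did, and 5 of them did not overlap between the 2 treated and 2 untreated arrays, against 20.8% of all genes. The differences between sTM-treated and untreated TM+ DCs there were 2.00 for *Cxcl1*, 0.81 for *Cxcl2*, 1.30 for *Cxcl3*, 2.47 for *Cxcl5* and 2.36 for *Cxcl10*. In TM+ DCs of experiment 4 all 7 had lower means with sTM, as 50.7% of all genes did, and 6 did not overlap, against 23.1%. The differences there were -0.96 for *Cxcl1*, -0.66 for *Cxcl2*, -0.55 for *Cxcl3*, -0.27 for *Cxcl5* and -0.70 for *Cxcl10*. Without experiment 4, which leaves experiment 3 as the only one with both treatments, 4 members were called higher with sTM in TM+ DCs, against a background of 1.94% of genes. These were *Cxcl1* (2.00, limma adjusted p = 1.8e-05), *Cxcl3* (1.48, 0.00156), *Cxcl5* (2.44, 4e-06) and *Cxcl10* (2.83, 0.00104).

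In TM- DCs the differences of the attractants with sTM lay between -0.41 and 0.03 in experiment 3 and between 0.12 and 0.49 in experiment 4. *Cxcl10* was at 10.79 and 10.67 in sTM-treated TM- DCs of experiment 3, against 7.60 and 7.42 in untreated ones, and at 7.80 and 7.64 in experiment 4, against 8.53 and 8.61. The difference with sTM was thus 3.22 in experiment 3 and -0.85 in experiment 4. For *Cxcl9* these differences were 1.19 and -0.39.

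The difference between the experiments was itself tested, as the effect of sTM averaged over both fractions in experiment 3 minus that in experiment 4. It was 3.56 for *Cxcl10* (standard error 0.109, limma adjusted p = 1.25e-11), 1.44 for *Cxcl1* (0.000202), 1.11 for *Cxcl5* (0.000384), 0.99 for *Cxcl9* (0.000273) and 0.63 for *Cxcl3* (0.0209), so that 5 of the 7 members were called higher, where 5.46% of all genes were. For *Cxcl2* (0.48, limma adjusted p = 0.125) and *Cxcl16* (0.23, 0.41) it did not pass the test. The test uses the spread between the 2 arrays of each setting. The call of *Cxcl3* was lost in 8 alternatives, among them centring on the 75th percentile (0.57, limma adjusted p = 0.089) and leaving out single arrays (0.0515 to 0.0686).

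**Figure D3:**
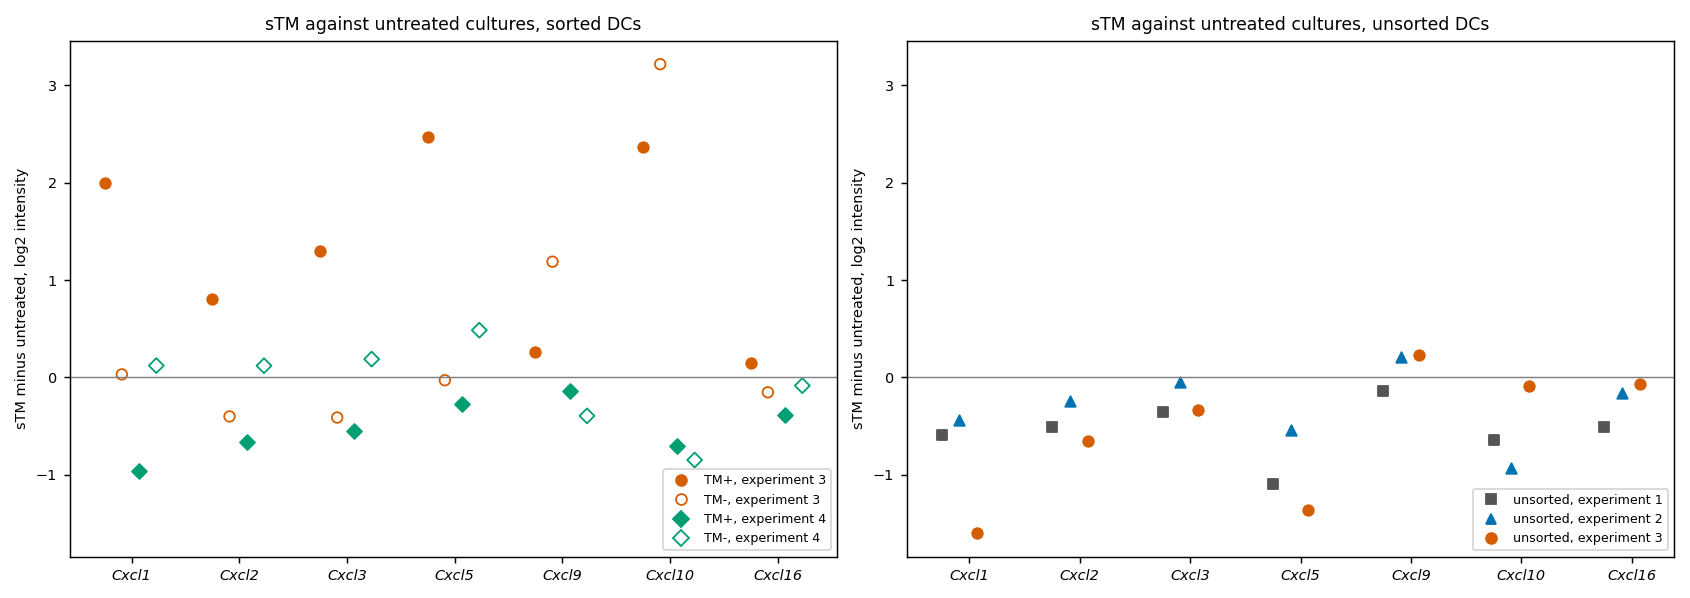
Difference in log2 intensity between sTM-treated and untreated cultures (y axis) for each CXC chemokine (x axis), as differences of group means within an experiment, for sorted DCs (left; TM+ filled, TM- open) and unsorted DCs (right). TM+ DCs lie above 0 in experiment 3 and below 0 in experiment 4 for all 7 genes, and *Cxcl10* in TM- DCs lies at 3.22 in experiment 3 and at -0.85 in experiment 4.

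In unsorted DCs the means of the 4 attractants were lower with sTM, and none passed the test. *Cxcl5* ranged from 7.27 to 8.27 (median 7.47) in sTM-treated and from 7.89 to 9.35 (median 8.74) in untreated cultures, with 8 arrays each. Both arrays of experiment 2 with sTM (8.16 and 8.27) lay above the 2 lowest untreated arrays, those of experiment 1 (8.06 and 7.89), and within experiments the treatments did not overlap. The log2 fold change was -1.02 (standard error 0.171) with an unadjusted p of 9.65e-06 and a limma adjusted p of 0.139. Differences within experiments 1, 2 and 3 were -1.09, -0.53 and -1.36, and without experiment 3 the fold change was -0.91 (limma adjusted p = 1). *Cxcl1* ranged from 9.31 to 12.12 (median 10.23) with sTM and from 10.76 to 12.03 (median 11.18) without, and its fold change was -0.80 (standard error 0.32, limma adjusted p = 0.991), or -0.54 without experiment 3. None of the 7 members was called in limma, 3 were lower at an unadjusted p under 0.05 (*Cxcl1*, *Cxcl3* and *Cxcl5*), and no gene was called in either direction in the whole series. With same-numbered arrays as a block instead, an alternative fit, *Cxcl5* was called lower (-1.02, limma adjusted p = 0.0342).

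Experiment 1 held both low and high arrays of unsorted DCs. With sTM, *Cxcl1* was at 9.60 and 9.75 in arrays 1 and 2 of experiment 1 and at 12.12 and 11.70 in arrays 3 and 4, against 10.76 and 11.23, and 11.49 and 12.03, in the untreated arrays of the same numbers. *Cxcl10* was at 8.15 and 8.36, and 10.64 and 10.57, with sTM, against 9.54 and 9.73, and 10.34 and 10.70, without. The difference with sTM over the 4 attractants averaged -1.18 in arrays 1 and 2 and -0.09 in arrays 3 and 4, and over *Cxcl9* and *Cxcl10* it averaged -0.79 and 0.00. Without arrays 3 and 4 of experiment 1, a setting chosen after the data had been seen, 4 members were called lower with sTM, against 0.843% of all genes. These were *Cxcl1* (-1.12, limma adjusted p = 0.00313), *Cxcl2* (-0.67, 0.0235), *Cxcl5* (-1.16, 0.00141) and *Cxcl10* (-0.80, 0.0496), and *Cxcl3* (-0.36, 0.147) and *Cxcl16* (-0.39, 0.257) did not pass. The effect of sTM was not shown to differ among experiments 1, 2 and 3 for any of the 7 (limma F test, 0 members called and 0 at an unadjusted p under 0.05, 1 gene called in all).

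**Figure D4:**
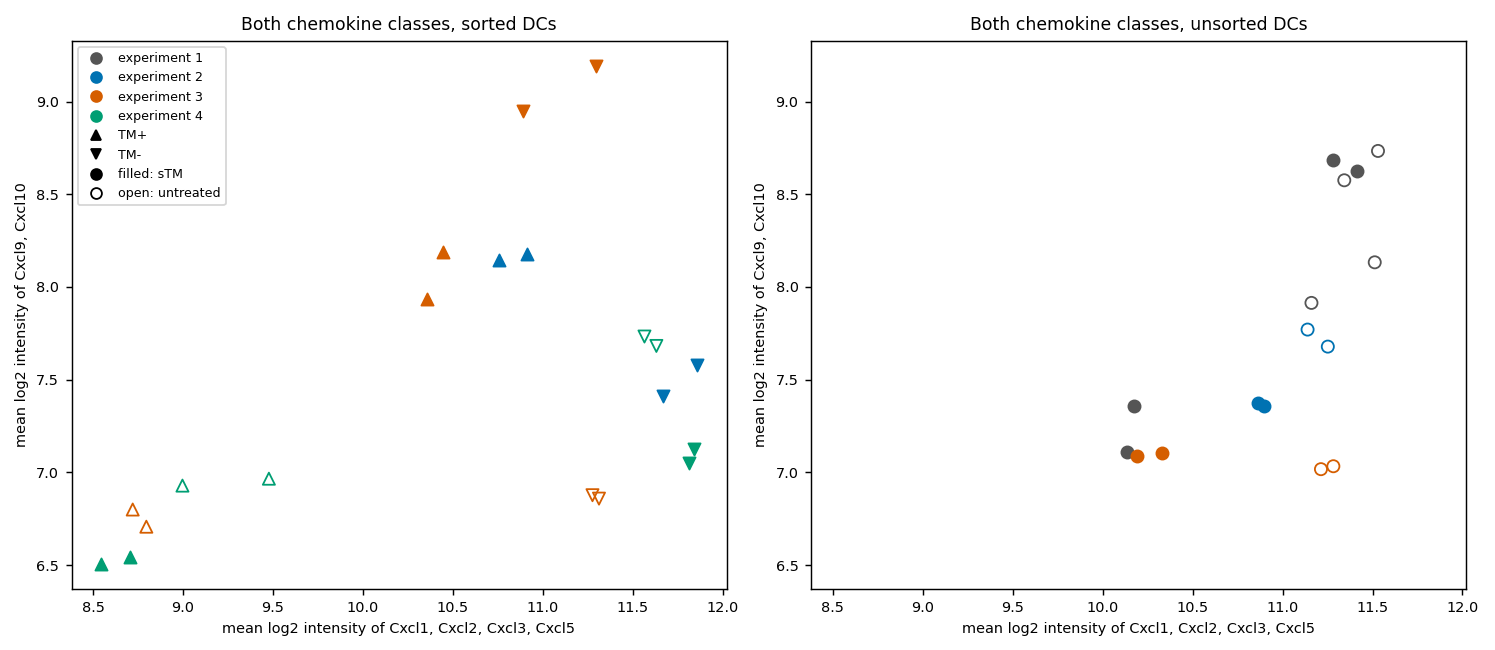
Mean log2 intensity of *Cxcl9* and *Cxcl10* (y axis) against that of *Cxcl1*, *Cxcl2*, *Cxcl3* and *Cxcl5* (x axis) on each array, for sorted DCs (left) and unsorted DCs (right), with colors for the experiment, filled symbols for sTM-treated and open symbols for untreated cultures. TM+ arrays lie left of TM- arrays within each experiment and treatment, and the y values of sTM-treated TM- DCs run from 7.05 in experiment 4 to 9.19 in experiment 3.

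Unsorted DCs are a mixture of both fractions, so their level was compared with those of TM+ and TM- DCs of the same experiment and treatment. Unsorted DCs lay between the fractions for 5 of 7 members in experiment 2 with sTM, 1 of 7 in experiment 3 with sTM and 4 of 7 in experiment 3 without sTM, where 37.5%, 42.8% and 48.1% of all genes did. In experiment 3 without sTM the unsorted means of the attractants were next to those of TM- DCs, with 10.92 for *Cxcl1* in unsorted, 7.97 in TM+ and 11.05 in TM- DCs, and with 8.77 for *Cxcl5* in unsorted, 5.40 in TM+ DCs and 8.77 in TM- DCs. In experiment 3 with sTM all members but *Cxcl2* lay outside the range of the fractions. *Cxcl10* averaged 7.74 in unsorted DCs there, 9.48 in TM+ DCs and 10.73 in TM- DCs, and *Cxcl1* averaged 9.32 in unsorted, 9.97 in TM+ and 11.08 in TM- DCs. A mixture of the 2 fractions as measured would lie between them, and the reason for these values was not tested.

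Genes of the pathways that induce neutrophil attractants were mostly lower in TM+ DCs. Of 17 measured inducers and NF-kB components 11 were lower, 2 were higher and 4 did not pass the test, with a median log2 fold change of -0.57. Of all genes 18.7% were called lower and 18.6% higher in this comparison, the background for the other gene lists as well. *Il1b* and *Il1a*, which encode the cytokines of the IL-1 receptor, had log2 fold changes of -1.18 (limma adjusted p = 0.000164) and -1.14 (0.000619). *Tnfrsf1b*, TNF receptor 2, had -1.80 (limma adjusted p = 3.49e-08), *Nfkb2* -1.29 (8e-07), and the NF-kB inhibitors *Tnfaip3* (A20) -1.58 (6.73e-09) and *Nfkbia* -1.25 (2.18e-07), both themselves NF-kB targets. *Il17ra*, an IL-17 receptor chain, was higher by 0.82 (limma adjusted p = 2.11e-06) and the adaptor *Myd88* by 0.69 (8.43e-05), and *Tnf* with -0.44 did not pass the test (0.198). Among 5 genes that govern the decay of chemokine transcripts, the RNase *Zc3h12a* (Regnase-1) was lower in TM+ DCs with -1.29 (limma adjusted p = 2.22e-07), *Traf3ip2* (Act1) with -0.88 (5.55e-07) and *Zfp36* (tristetraprolin) with -0.24 (0.0327). *Elavl1* (HuR), which stabilizes such transcripts, was higher by 0.30 (limma adjusted p = 0.00476).

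Over both kinds of culture most interferon-induced genes were lower in TM+ DCs, while *Cxcl9* and *Cxcl10* were not called. Of 16 measured, 13 were lower, 0 were higher and 3 did not pass the test, with a median log2 fold change of -0.95 (18.7% of all genes were lower). *Rsad2* (viperin) had -2.58 (limma adjusted p = 0.000453), *Ifit1* -1.92 (0.00107) and *Oasl1* -1.88 (0.000263), while *Ifit2* (-0.69, 0.237), *Cmpk2* (-0.98, 0.107) and, with the opposite sign, *Mx1* (0.67, 0.086) did not pass. In untreated cultures *Rsad2* (-3.48, limma adjusted p = 0.0029), *Ifit1* (-2.59, 0.00594) and *Oasl1* (-2.41, 0.00283) were called. In sTM-treated cultures *Oasl1* was called (-1.35, limma adjusted p = 0.0336), and *Rsad2* (-1.69, 0.0629) and *Ifit1* (-1.26, 0.086) were not. Of 16 interferon signaling genes 8 were lower and 2 higher. The transcription factor *Irf7* had -2.62 (limma adjusted p = 1e-05) and *Ifnar1*, a chain of the type I interferon receptor, -0.76 (8.93e-06). The chains of the interferon gamma receptor went opposite ways. *Ifngr1* was higher by 0.80 (limma adjusted p = 4.87e-08) and *Ifngr2* was lower with -0.33 (0.000102). In the comparison of sTM effects between experiments 3 and 4, all 16 interferon-induced genes were called higher in experiment 3. Their median was 2.00, next to the 3.56 of *Cxcl10*. Of the 17 inducers and NF-kB components 7 were called higher, among them the inhibitors *Nfkbia* (0.76) and *Tnfaip3* (0.60). The 2 called lower were the receptors *Tlr2* (-0.53) and *Tlr4* (-0.79). There 5.46% of all genes were called higher and 3.7% lower.

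Of 8 further CXC ligands, *Cxcl14* was higher in TM+ DCs by 0.52 (limma adjusted p = 0.000534), *Cxcl15* was lower with -0.24 (0.0151) and 6 did not pass the test. These 6 include *Cxcl11*, the third CXCR3 ligand, with -0.57 (limma adjusted p = 0.166), and *Ppbp* and *Pf4*, which lie between *Cxcl5* and *Cxcl3* on chromosome 5, with -0.35 (0.0988) and -0.30 (0.0708). In untreated cultures alone both were called lower in TM+ DCs, *Ppbp* with -1.11 (limma adjusted p = 0.00315) and *Pf4* with -0.69 (0.0139), and in sTM-treated cultures they had 0.41 (0.151) and 0.10 (0.655). Of 8 receptors *Cxcr2*, the receptor of the neutrophil attractants, had a log2 fold change of 2.48 (standard error 0.276, limma adjusted p = 4.95e-07), or 5.59-fold higher in TM+ DCs. Neutrophils carry this receptor as well. *Cxcr5* (-1.59, limma adjusted p = 7.95e-08), the scavenging receptors *Ackr3* (-0.58, 8.5e-05) and *Ackr1* (-0.20, 0.00645) were lower, and *Cxcr3* (-0.21, 0.0584), *Cxcr4* (-0.31, 0.356) and *Cxcr6* (0.09, 0.303) were among the 4 that did not pass. *Cxcl15* (4.13 to 4.99) and *Ackr1* (4.74 to 5.81) were low on all 36 arrays, and low intensities were not separated from background. *Cxcl15* was not called in sTM-treated cultures (-0.11, limma adjusted p = 0.41), nor *Ackr1* in untreated ones (-0.17, 0.181). *Adam10*, which encodes the protease that sheds CXCL16, was higher in TM+ DCs by 1.09 (limma adjusted p = 8.4e-09), and *Adam17* with -0.15 did not pass (0.132).

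Marker genes of other cell states moved with the sort, and their part in the differences above was not tested. Over both kinds of culture all 7 markers of mature DCs were lower in TM+ DCs, *Cd83* with -2.19 (limma adjusted p = 3.17e-07) and *Ccr7* with -1.41 (1.79e-05). In untreated cultures alone *Cd86* (-0.08, limma adjusted p = 0.804) and *Fscn1* (-0.91, 0.163) were not called, nor was *Fscn1* in sTM-treated ones (-0.77, 0.121). The summed level of the 7 was 12.76 to 14.52 in TM+ and 13.88 to 15.09 in TM- DCs. A summed level is the log2 of the sum of the linear intensities, in which the brightest genes weigh most. Of 10 neutrophil markers 8 were higher in TM+ DCs, *S100a8* by 2.15 (limma adjusted p = 1.93e-05), with summed levels of 13.06 to 14.49 in TM+ and 12.54 to 13.32 in TM- DCs. All 3 eosinophil markers were higher (9.34 to 11.93 in TM+ and 8.23 to 9.46 in TM- DCs), as were 5 of 7 macrophage markers (13.85 to 14.19 and 13.40 to 13.99). Of 9 markers of conventional DCs 5 were higher and 2 lower, 2 of 4 markers of plasmacytoid DCs and 2 of 5 of stromal cells were lower, and 0 of the markers of B, T, NK, mast and erythroid cells were called. These counts stand against 18.6% of all genes called higher and 18.7% called lower. RMA intensities have no true 0, so no marker can be said to be absent. These levels also moved among the TM+ arrays. In sTM-treated TM+ DCs the summed mature DC markers were at 12.98 and 13.15 in experiment 2, 14.39 and 14.52 in experiment 3 and 12.76 and 12.89 in experiment 4, and in untreated TM+ DCs at 12.87 and 12.88 in experiment 3 and 13.46 and 13.55 in experiment 4. The summed neutrophil markers of TM+ DCs were at 13.06 and 13.15 in experiment 3 with sTM, against 13.76 and 13.83 without, and at 13.99 and 14.04 in experiment 4 with sTM, against 14.46 and 14.49 without. This sum leans on the brightest marker, *Mmp8*, with means of 12.79 in TM+ and 12.64 in TM- DCs (log2 fold change 0.10, limma adjusted p = 0.297). With sTM in TM+ DCs *Mmp8* had 0.24 and the other neutrophil markers were lower. Called were *Ltf* (-2.19, limma adjusted p = 0.009), *Elane* (-0.58, 0.0142), *Camp* (-1.28, 0.0273) and *S100a9* (-1.91, 0.0477). The rest, *S100a8* with -1.71 among them, did not pass the test. Of all genes 0.471% were called lower in this comparison.

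Over the 20 sorted arrays the 4 neutrophil attractants varied together. Pearson's r between any 2 of them was 0.85 to 0.94, and 0.94 to 0.98 after the mean of each experiment had been taken out. Between *Cxcl9* and *Cxcl10* r was 0.69 (0.85 within experiments), and between members of the 2 classes it was 0.21 to 0.58. *Cxcl16* correlated with the attractants at 0.31 to 0.61. Over the 16 unsorted arrays the classes were not parted in this way. *Cxcl5* correlated with the other attractants at only 0.15 to 0.30, while *Cxcl1*, *Cxcl2* and *Cxcl3* correlated with one another at 0.76 to 0.91 and with *Cxcl10* at 0.63 to 0.88. These points share experiments, fractions and treatments, and r is a description without a test.

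The genes most like each member, taken as the 3 with the highest r over the 20 sorted arrays, are given with their r over the 16 unsorted arrays, which did not choose them. Most like *Cxcl1* were *Slc11a2*, an iron transporter (0.983 and 0.815 unsorted), *Cflar*, an inhibitor of caspase-8 (0.980 and 0.786), and *Tnfaip3* (0.978 and 0.851). For *Cxcl2* they were *Malt1*, a paracaspase (0.975 and 0.728), *Zc3h12c*, an RNase of the Regnase family (0.974 and 0.893), and the phosphatase *Dusp14* (0.968 and 0.836). For *Cxcl3* they were *Pi4k2b* (0.960 and 0.779), *Marcksl1* (0.934 and 0.659) and *Cxcl1* itself (0.933 and 0.909). *Cxcl5* was most like *Irf7* (0.961), which did not track it in unsorted DCs (0.141), *Sema3a* (0.956 and 0.865) and *Prr13* (0.952 and 0.640).

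*Cxcl10* was closest to *Ifit2* (0.962 and 0.923 unsorted) and *Cmpk2* (0.959 and 0.992), both interferon-induced, and to *Gm12250* (0.922 and 0.523). *Cxcl9* was closest to *Cemip2* (0.910 and 0.637), *Uba7*, which activates the ubiquitin-like ISG15 (0.880 and 0.820), and *Cxcl11* (0.873 and 0.636). *Cxcl16* was closest to *Ttc39c* (0.929 and 0.787), *Apbb2* (0.913 and 0.590) and *Pik3r1*, a regulatory subunit of PI3-kinase (0.898 and 0.738). These sets depend on the measure. Ranked by Spearman's rho or by r within experiments, 0 to 2 of the 3 genes stayed among the top 3 of a member, and in 12 of 14 such rankings no more than 1 did.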

How the data were processed

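The authors hybridized RNA to Affymetrix Mouse Gene 1.0 ST arrays and corrected, normalized and summarized the probes with RMA (Affymetrix Power Tools 1.12.0, annotation NetAffx release 31). What they deposited is an intensity on the linear scale for each of 35556 transcript clusters. These were turned to log2 here, with no filter. The annotation gives 1 symbol to 21789 clusters, several to 1621 and none to 12146. Per symbol the cluster with the highest mean over 36 arrays was kept (19938 genes, 999 of them with several clusters, no member among these).

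Sorted and unsorted DCs were fitted apart with limma 3.58.1 and statmod 1.5.0 in R 4.3.3, with experiment as a random block (estimated correlation 0.396 and 0.375) and Benjamini-Hochberg adjustment over all genes. Tests of differences between experiments used 1 mean per experiment, fraction and treatment. The fits were first run on simulated data with known changes. Their recovery was checked for TM+ minus TM- DCs, for sTM in sorted and in unsorted DCs and for 2 tests between experiments. Those 2 were the sTM effect of experiment 3 minus experiment 4 and the sorting difference by experiment. The other comparisons were not checked in this way. Summaries were made with pandas 2.3.3 and numpy 2.4.6 and figures with matplotlib 3.10.9 (Python 3.11.15). Members, gene lists, markers and the rule for like genes were chosen with earlier results of these data known. Named are all 7 members, the 3 genes most like each and, per list, leading members past the test, and further list genes were picked with their values known. Replicate numbers did not pair single arrays across groups, with r of -0.249 to 0.403 for array 1 minus array 2. In experiment 1, however, unsorted arrays of the same state deviated together across treatments (r of 0.564 to 0.746). The main fit has no term for these states. Alternatives were other experiment terms, scalings, filters, cluster choices, array weights and leaving out single arrays or experiments.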

Additional observations from a re-analysis of the deposited data

Results flagged for a closer look

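Of 42 groups of 4 to 8 arrays, 2 held an array far from the others, where chance alone gives about 1 in 20 groups. *Cxcl1* in TM+ DCs of untreated cultures was at 9.06 in the second array of experiment 4, against 7.97 to 8.06 in the other arrays of the group. *Cxcl16* in TM- DCs of sTM-treated cultures was at 11.27 in the second array of experiment 3, against 11.57 to 11.72 in the others.

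In 16 further results the experiments differed by a limma test of the difference itself. The effect of sTM in experiment 3 minus that in experiment 4 was 1.44 for *Cxcl1*, 0.63 for *Cxcl3*, 1.11 for *Cxcl5*, 0.99 for *Cxcl9* and 3.56 for *Cxcl10*. The difference between TM+ and TM- DCs in experiment 3 minus that in experiment 4 was 1.94 for *Cxcl1*, 1.20 for *Cxcl2*, 0.71 for *Cxcl3* and 0.83 for *Cxcl5*. In sTM-treated cultures of experiments 2, 3 and 4 the same difference varied with F values of 203 for *Cxcl1*, 42.8 for *Cxcl2*, 47.9 for *Cxcl3*, 41.1 for *Cxcl5*, 11.3 for *Cxcl9*, 45.8 for *Cxcl10* and 17.5 for *Cxcl16*. These tests rest on the spread between 2 arrays per setting.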

How the results depend on the processing

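Under the alternatives run for each comparison, 5 to 6 of the 7 members were lower in TM+ DCs, 4 to 7 in untreated and 4 to 5 in sTM-treated cultures, and none was called higher, while the number of all genes called lower in TM+ DCs ran from 985 to 9040 (3729 as reported). The all-gene median of TM+ minus TM- was -0.20 with arrays centred on their 75th percentile, against -0.08 as deposited. Counts of members called for sTM, 0 as reported, changed as follows. With array weights 2 were higher in TM+ DCs, 1 in sorted and 1 lower in unsorted DCs, and centring on the 75th percentile gave 1 lower in unsorted DCs. Without experiment 4 there were 4 in TM+, 1 in TM- and 3 in sorted DCs, and 3 interactions. Without arrays 3 and 4 of experiment 1, chosen after seeing the data, 4 were lower in unsorted DCs and 1 differed by experiment. Leaving out 1 array gave 0 to 1 higher in TM+ and 0 to 1 lower in unsorted DCs. With the replicate block, 1 member was lower in unsorted DCs (*Cxcl5*, -1.02, limma adjusted p = 0.0342), and the block changed no other count of members. Its numbers did not pair single arrays, although arrays of the same state in experiment 1 moved together across treatments.

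Signs turned for values that were not called as reported, and the cause was not tested. The effect of sTM in TM- DCs turned with array weights for *Cxcl1* (0.074), *Cxcl2* (0.049), *Cxcl3* (0.093), *Cxcl9* (-0.18), *Cxcl10* (-0.26) and *Cxcl16* (-0.035), without the experiment term for *Cxcl1* (0.21) and *Cxcl16* (-0.089), after centring for *Cxcl16* (-0.041), without experiment 2 for *Cxcl1* (0.077) and *Cxcl16* (-0.12), without experiment 3 for *Cxcl9* (-0.59) and *Cxcl10* (-1.06), without experiment 4 for *Cxcl1* (0.22), and without the sTM-treated sorted arrays of experiment 3 for *Cxcl9* (-0.33) and *Cxcl10* (-0.59). In sorted DCs it turned with array weights for *Cxcl2* (0.11) and *Cxcl9* (-0.085), without the experiment term for *Cxcl2* (0.000415), without experiment 3 for *Cxcl1* (-0.28), *Cxcl3* (-0.094), *Cxcl9* (-0.26) and *Cxcl10* (-0.57), without experiment 4 for *Cxcl2* (0.20), and without those arrays of experiment 3 for *Cxcl9* (-0.22) and *Cxcl10* (-0.21). In TM+ DCs it turned without experiment 3 for *Cxcl1* (-0.042), *Cxcl2* (-0.21) and *Cxcl10* (-0.081), and without those arrays for *Cxcl2* (-0.20) and *Cxcl9* (-0.11). In unsorted DCs *Cxcl9* turned without experiment 2 (-0.019) and 3 (-0.027). The interaction of *Cxcl9* turned with array weights (0.19), centring (0.043), quantile normalization (0.037), without experiment 3 (0.65) and without those arrays (0.22), that of *Cxcl10* without experiment 2 (-0.35), that of *Cxcl16* without experiment 2 (0.000357), and that of *Cxcl2* without those arrays (-0.035). Between TM+ and TM- DCs *Cxcl10* in sTM-treated cultures turned without experiment 3 (0.14) and without those arrays (0.14), and *Cxcl9* in untreated cultures without experiment 4 (0.16). The sorting difference of *Cxcl10* between experiments 3 and 4 turned after centring (0.14) and quantile normalization (0.042). Leaving out 1 array, the ranges that crossed 0 were -0.26 to 0.12 for *Cxcl1* and -0.020 to 0.12 for *Cxcl16* in TM- DCs, -0.13 to 0.10 for *Cxcl2* in sorted DCs, -0.023 to 0.11 for *Cxcl9* in unsorted DCs, and -0.18 to 0.17 for *Cxcl9* and -0.053 to 0.66 for *Cxcl10* in the interaction. Low intensities were not separated from background, so small differences of *Cxcl9* are least secure.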

Other observations

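In TM+ DCs *Ppbp*, a platelet-stored CXCR2 ligand, was higher with sTM by 1.03 (limma adjusted p = 0.0454) and the receptor chain *Il17ra* was lower, with a log2 fold change of -0.72 (limma adjusted p = 0.0258). In the comparison of sTM effects between experiments 3 and 4, *Cxcl11* had 2.85 (limma adjusted p = 5.08e-08) and *Ppbp* 0.60, and the receptors *Cxcr2* (-1.41) and *Cxcr4* (-1.05) ran the other way.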
